A study of Mus musculus with 10 samples.

Results

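The 35 genes described here are reported transcriptional targets of YAP1 and the TEAD factors, chosen by symbol from a fixed list that leaves out the CCN, angiomotin, Hippo kinase and cell cycle genes. All 35 are among the 16895 genes listed for each tumor, and all 35 passed the filter on low values that left 13707 genes for testing. RNA was measured in 10 meningioma-like tumors of mice, 7 made with YAP1-MAML2-v2 and 3 with NLS-2SA-YAP1. According to the labels, DF1 cells, a chicken fibroblast line that produced the avian RCAS retrovirus, were placed in the subarachnoid space of mice 0 to 3 days after birth. All mice were null for Cdkn2a and carried tv-a, the receptor that lets the virus enter, under Nestin control, so both groups share this background. The groups differ in construct and also in their mix of source regions. Of the YAP1-MAML2-v2 tumors, replicates 1, 3, 4 and 5 were extra cranial, replicates 2 and 6 extra axial and replicate 7 intra ventricular. Of the NLS-2SA-YAP1 tumors, replicate 1 was extra axial and replicates 2 and 3 extra cranial. No normal tissue or tumor without a YAP1 construct was analysed here, so each level is read only against the other tumors.

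YAP1 is a coactivator without a DNA-binding domain of its own. In the nucleus it binds TEAD factors, which hold it on promoters and enhancers, and the Hippo kinases LATS1 and LATS2 restrain it by phosphorylation. The YAP1-MAML2 fusion joins the TEAD-binding part of YAP1 to part of MAML2, a coactivator of Notch signaling. NLS-2SA-YAP1 is, by the series title, a constitutively active YAP1. The usual targets of YAP1 and TEAD encode secreted signals, surface receptors, regulators of the actin skeleton and a few nuclear proteins, and loss of NF2, which acts upstream of the Hippo kinases, is a frequent event in human meningioma.

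Values are CPM, the deposited value of a gene scaled to a common library size after TMM normalization. The deposited totals ran from 28001143 to 44544314 per library. Their pattern of low values is not that of raw read counts, so the sequencing depth is unknown and no counting interval is given. Of the 13 meningeal and arachnoid markers, the transcription factor gene FOXC1 (175 to 1020 CPM) and the proteoglycan gene OGN were among those present in every tumor. OGN separated the constructs, with 4490 to 5000 CPM under NLS-2SA-YAP1 and 247 to 2370 CPM under YAP1-MAML2-v2. Other markers were listed at or near 0 in some tumors. SLC47A1 ran from 0 to 5540 CPM, CLDN11 was at 0 in YAP1-MAML2-v2 replicate 6, and CRABP2 was at 0.03 CPM in replicate 4. The meningioma receptor gene SSTR2 was listed at 0 in 5 tumors and the arachnoid enzyme gene PTGDS in YAP1-MAML2-v2 replicate 5. Summed over 11 skeletal muscle genes, the sum was 115 and 433 CPM for NLS-2SA-YAP1 replicates 2 and 3 and 98.2 CPM for YAP1-MAML2-v2 replicate 3, against 2.26 to 11.3 CPM in the other tumors. The intra ventricular tumor had the highest sums of neuron genes (312 CPM, against 1.33 to 39.2 CPM elsewhere) and of astrocyte and oligodendrocyte genes (1400 CPM, against 20.4 to 340 CPM). In whole tumors, fewer cells of a type and less RNA per cell cannot be told apart. The labels do not say that each library came from its own mouse, and p-values measure only the spread between these libraries.

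The targets were well expressed as a group and varied widely from tumor to tumor. Per kb of exon, the median target stood at 16.6 CPM per kb and 29 of 35 targets lay above the median of all tested genes with a known length, 5.65 CPM per kb. The SD of log2 CPM over the 10 tumors had a median of 1.05 among the targets and of 0.82 among all genes tested, with 27 of 35 targets above the latter. The plot of all targets by tumor shows these levels.

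**Figure D1:**
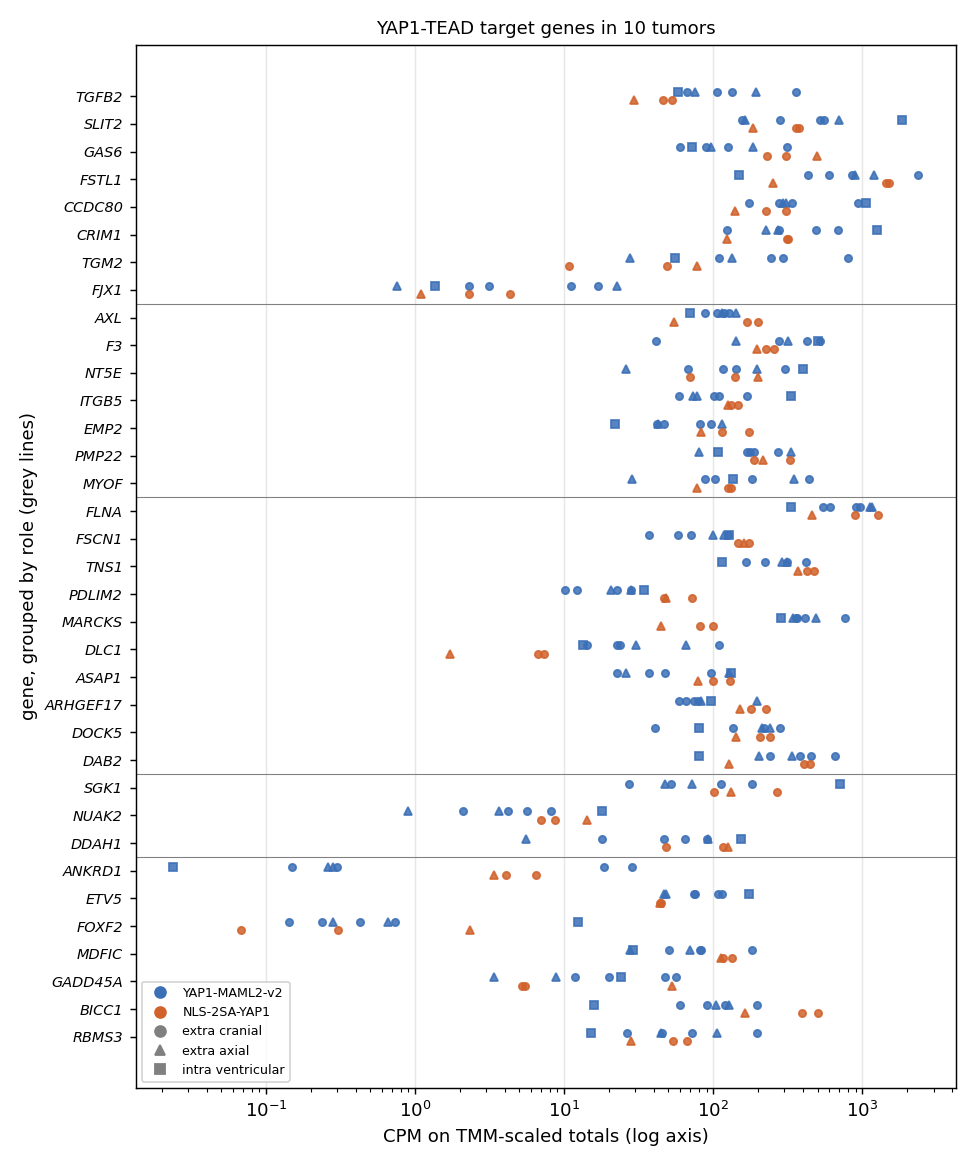
CPM of each of the 35 targets (rows, grouped by role) in each of the 10 tumors, on a log axis. Color gives the construct and marker shape the source region. TGM2 spans 10.8 to 805.6 CPM with the colors mixed, while MARCKS shows the NLS-2SA-YAP1 tumors apart at 44.4 to 100.2 CPM.

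The highest levels per kb of exon belonged to FSTL1, F3 and FLNA. FSTL1 encodes a secreted follistatin-like glycoprotein, F3 tissue factor, which starts blood clotting, and FLNA filamin A, which cross-links actin. Their medians over the 10 tumors were 178, 105 and 95.5 CPM per kb, and their ranges overlapped (30.1 to 482, 16.4 to 207 and 35.2 to 136 CPM per kb). The lowest levels belonged to FOXF2, a forkhead factor gene, ANKRD1 and FJX1, the gene of a secreted four-jointed relative, with medians of 0.15, 0.64 and 0.87 CPM per kb. FOXF2 stood at 12.3 CPM in the intra ventricular tumor and at 2.35 CPM in NLS-2SA-YAP1 replicate 1. It was at or below 0.73 CPM in each of the other 8 tumors.

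None of these highest and lowest targets separated the constructs. FSTL1 measured 253, 1517 and 1433 CPM in NLS-2SA-YAP1 replicates 1 to 3, against 148 CPM (lowest), 854.5 CPM (median) and 2367 CPM (highest) with YAP1-MAML2-v2. F3 measured 195, 227 and 254 CPM against 41.5 CPM (lowest), 315 CPM (median) and 523 CPM (highest), so the YAP1-MAML2-v2 tumors surrounded the others. FJX1 measured 1.1, 4.3 and 2.31 CPM against 0.76 CPM (lowest), 3.11 CPM (median) and 22.5 CPM (highest), with YAP1-MAML2-v2 replicates 1, 2 and 4 above every other tumor.

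AXL, FLNA and PMP22 varied least between tumors, with SDs of 0.56, 0.65 and 0.65 on the log2 scale. For AXL, a receptor tyrosine kinase gene, NLS-2SA-YAP1 replicates 1 to 3 gave 54.8, 167 and 198.5 CPM. The YAP1-MAML2-v2 tumors gave 69.9 CPM (lowest), 114 CPM (median) and 141 CPM (highest). The NLS-2SA-YAP1 tumors thus held both its lowest and its 2 highest values, and the log2 fold change between constructs was 0.19 (SE 0.39, edgeR adjusted p = 0.895). That sign turned without NLS-2SA-YAP1 replicate 3 (-0.09). PMP22, the gene of a small membrane protein of myelin and of junctions, measured 215, 327 and 188 CPM with NLS-2SA-YAP1, within the YAP1-MAML2-v2 range of 80.6 to 334 CPM (median 177 CPM). ANKRD1, FOXF2 and TGM2 varied most, with SDs of 2.98, 1.93 and 1.79.

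ANKRD1 encodes a cardiac and skeletal muscle ankyrin repeat protein and is widely read as a YAP1 reporter in cultured cells. It stood at 28.5 CPM in YAP1-MAML2-v2 replicate 3 and 18.5 CPM in replicate 4, while NLS-2SA-YAP1 replicates 1, 2 and 3 showed 3.4, 6.49 and 4.1 CPM. YAP1-MAML2-v2 replicates 1, 2, 5 and 6 had 0.15, 0.26, 0.30 and 0.28 CPM, and replicate 7 had a deposited value of 1. YAP1-MAML2-v2 tumors therefore fell on both sides of all 3 NLS-2SA-YAP1 tumors. The summed muscle genes were 98.2 CPM in YAP1-MAML2-v2 replicate 3 and 3.94 CPM in replicate 4, and their part in the ANKRD1 levels was not tested. Its log2 fold change between constructs was 0.78 (SE 1.91), and edgeR's adjusted p was 0.915. Its sign turned among extra cranial tumors alone (-1.17, edgeR adjusted p = 0.853).

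The promoter of Ankrd1 holds the short TEAD motif at 2 places, and its stretch is shown because ANKRD1 is the best known reporter of the list. TEAD binding at these places was not tested. The sequences below come from RefSeq on GRCm38.p6, are written in the direction of the gene, and carry the motif GGAATG or its reverse complement in capitals. The ANKRD1 stretch lies at chr19:36119947-36120069 on the minus strand, from 225 to 103 bases before the RefSeq start. GENCODE M21 places the start of Ankrd1 further upstream, at 36120099, so there the stretch lies within the gene. The AXL stretch lies at chr7:25788946-25788981, minus strand, and the FLNA stretch at chrX:74246660-74246695, minus strand. Both genes are among the 3 targets of smallest spread. The FLNA stretch also lies within the GENCODE gene model, which ends at 74249820. With a purine required before the motif and a pyrimidine after it, the AXL stretch still matches. Those of ANKRD1 and FLNA do not.
ANKRD1: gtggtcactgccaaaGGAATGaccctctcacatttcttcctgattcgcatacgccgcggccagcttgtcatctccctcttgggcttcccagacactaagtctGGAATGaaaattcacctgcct
AXL: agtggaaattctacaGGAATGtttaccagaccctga
FLNA: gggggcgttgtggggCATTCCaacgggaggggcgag

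Promoter windows of 300 bases, 250 before to 50 after each start, matched 24 of the 35 targets and gave 35 windows, some of which overlap within a gene. The letters GGAATG, searched on both strands, were in 7 of these 35 windows (20%), those of ANKRD1, AXL, CRIM1, DAB2, FLNA, PMP22 and SGK1. They were in 14.7% of all 32851 windows of this length. The AP-1 motif TGANTCA, which does not overlap the TEAD motif, was in 1 target window (2.86%), that of F3, and in 7.81% of all windows. A short window near the start does not cover enhancers, where much TEAD binding is known to lie. ARHGEF17, ASAP1, BICC1, CCDC80, DLC1, DOCK5, FJX1, MARCKS, NUAK2, PDLIM2 and TGM2 had no window in the table.

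The tumor in the ventricle stood apart for many targets, as it did for many genes outside the list. Over all genes tested, its correlations of log2 CPM with the other tumors were 0.659 to 0.823. The lowest of these was the lowest between any pair of tumors. It held the highest level of 11 of 35 targets (31.4%), against 19.9% of all genes tested, and the lowest level of 8 (22.9%), against 17.8%. Among the 11 were SLIT2, an axon guidance ligand gene, with 1846 CPM against at most 699 CPM elsewhere, and SGK1, a serum- and glucocorticoid-induced kinase gene, with 706 CPM against at most 266 CPM. CRIM1, the gene of a membrane protein that binds bone morphogenetic proteins, stood at 1254 CPM against at most 689 CPM, and ITGB5, the integrin beta 5 chain gene, at 334 CPM against at most 167.5 CPM. Among the 8 at their lowest were FSTL1 (148 CPM, against at least 253 CPM elsewhere), BICC1 (15.7 against at least 59.6 CPM) and DAB2 (80.7 against at least 128 CPM). With 1 tumor from this region there is no test. This tumor also had the highest sums of macrophage and microglia genes (1330 CPM, against at most 748 CPM elsewhere), endothelial genes (973 against at most 623 CPM) and bone and cartilage genes (456 against at most 374 CPM). Not every gene of these lists was high there. MRC1 of the macrophage list was lowest in this tumor (4.62 CPM, against at least 33.9 CPM elsewhere). The bone and cartilage sum was nearly all COL2A1 (372 CPM) and ACAN (83.8 CPM), with BGLAP and IBSP at 0. The meningeal and arachnoid sum was also highest in this tumor (13700 against at most 13200 CPM elsewhere). PTGDS alone gave 8540 CPM of it, and SSTR2 (1090 CPM) and FOXC1 (1020 CPM) were also highest there. Markers of the same list went the other way. FOXC2 (14.4 against at least 53.4 CPM elsewhere) and DCN (19.6 against at least 41.3 CPM) were lowest in this tumor. The part that these lists and the neuron and glia genes play in its target levels was not tested.

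**Figure D2:**
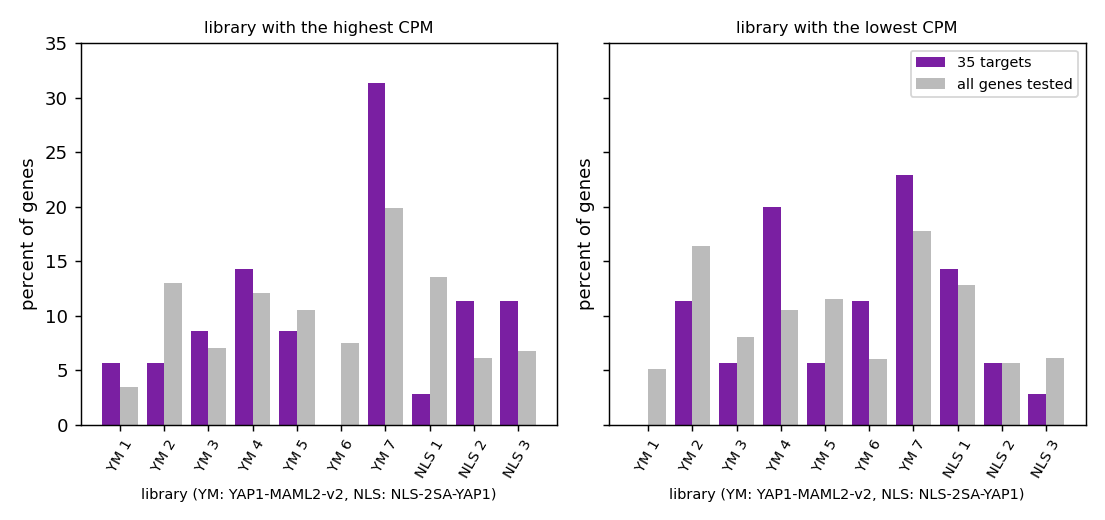
Percent of the 35 targets (purple) and of all 13707 genes tested (grey) for which each library had the highest (left) or lowest (right) CPM. YAP1-MAML2-v2 replicate 7, the intra ventricular tumor, has 31.4% of target maxima, and YAP1-MAML2-v2 replicate 6 has none.

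The first comparison asked whether the targets differ between tumors of the 2 constructs. In 6 of 35 targets (17.1%) no NLS-2SA-YAP1 tumor overlapped any YAP1-MAML2-v2 tumor, against 6.73% of all genes tested. MARCKS, DLC1, TGFB2 and ETV5 lay lower with NLS-2SA-YAP1 (4 targets, against 3.03% of all genes) and PDLIM2 and FSCN1 higher (2 targets, against 3.71%), so the separated targets went both ways. Of these, 4 belong to the 10 regulators of the cytoskeleton, adhesion and small GTPases. By edgeR's quasi-likelihood test with Benjamini-Hochberg adjustment over 13707 genes, 0 of 35 targets passed, against 0.0146% of all genes, which is 2 genes. At an unadjusted edgeR p under 0.05 there were 9 targets (25.7%) against 13.1% of all genes. DESeq2 called 5 targets (14.3%) against 4.92%, limma-voom with sample quality weights called 1 (2.86%) against 0.693%, and limma on log2 CPM called 0 of 35 against 0.0292%. Over the 35 targets the median log2 fold change, NLS-2SA-YAP1 minus YAP1-MAML2-v2, was 0.08 with 19 above 0, beside a median of -0.03 and 48.4% above 0 over all genes tested. Its sign turned without the region term (-0.05).

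MARCKS, on chromosome 10 at 37133375 to 37138920 (mm10), encodes a membrane-bound substrate of protein kinase C that binds actin and calmodulin. Its level with NLS-2SA-YAP1 was 44.4 CPM for replicate 1, 81 CPM for replicate 2 and 100.2 CPM for replicate 3. In YAP1-MAML2-v2 replicates 1 to 7 it stood at 360.2, 490.4, 413, 760.4, 364, 341 and 286 CPM. The lowest YAP1-MAML2-v2 tumor, the intra ventricular one, was thus still far above the highest NLS-2SA-YAP1 tumor, and the lowest MARCKS value was that of the extra axial NLS-2SA-YAP1 tumor. Means were 75.2 ± 28.3 CPM (SD, n = 3) and 431 ± 159 CPM (SD, n = 7). The log2 fold change was -2.65 (SE 0.42). Its adjusted p was 0.0994 in edgeR, 1.46e-09 in DESeq2 and 0.0187 in limma-voom with sample quality weights. Among extra cranial tumors alone it was -2.40 (edgeR adjusted p = 0.27). Leaving out each library in turn gave -2.84 to -2.40.

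DLC1, on chromosome 8 at 36567751 to 36953143 (mm10), encodes a GTPase-activating protein. Its NLS-2SA-YAP1 values were 1.72, 7.35 and 6.66 CPM. Its YAP1-MAML2-v2 values for replicates 1 to 7 were 23.7, 65.6, 22.7, 109.6, 14.2, 30.3 and 13.4 CPM. The groups did not overlap, and YAP1-MAML2-v2 replicates 4 and 2 were far above the other tumors. The fold change of -3.19 on the log2 scale (SE 0.84) had adjusted p-values of 0.211 in edgeR and 0.000598 in DESeq2. It was -2.60 among extra cranial tumors alone (edgeR adjusted p = 0.449).

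TGFB2, the transforming growth factor beta 2 ligand gene on chromosome 1 at 186622792 to 186705989 (mm10), had 29.2, 45.7 and 52.5 CPM in NLS-2SA-YAP1 tumors. It had 106, 194, 133, 361, 66.9, 75.3 and 57.5 CPM in YAP1-MAML2-v2 replicates 1 to 7. The gap was narrow, since the intra ventricular tumor lay close to NLS-2SA-YAP1 replicate 3. A log2 fold change of -1.91 (SE 0.58) had adjusted p-values of 0.25 in edgeR and 0.0159 in DESeq2. ETV5, an ETS family transcription factor gene that responds to FGF and ERK signaling, was nearly constant in NLS-2SA-YAP1 tumors at 43.5, 44.8 and 43.5 CPM. Its YAP1-MAML2-v2 values ran from 46.5 to 173 CPM with a median of 75.3 CPM, and the 2 extra axial tumors (48.4 and 46.5 CPM) were the lowest. ETV5 thus differed by a log2 fold change of -0.74 (SE 0.32; adjusted p = 0.367 by edgeR).

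The targets that separated upward both shape the actin skeleton. PDLIM2, the gene of a PDZ and LIM domain protein of actin fibers, had 47.9, 71.6 and 46.6 CPM in NLS-2SA-YAP1 tumors. In YAP1-MAML2-v2 tumors it had 10.1 CPM (lowest), 22.7 CPM (median) and 34.4 CPM (highest, replicate 7). On the log2 scale PDLIM2 was higher by 1.47 (SE 0.39), with adjusted p-values of 0.218 in edgeR and 0.0399 in DESeq2. FSCN1, the gene of the actin-bundling protein fascin, had 161, 173 and 146 CPM in NLS-2SA-YAP1 tumors, against 37.1 CPM (lowest), 99.5 CPM (median) and 127 CPM (highest). On that scale FSCN1 was higher by 0.95 (SE 0.37; adjusted p = 0.326 by edgeR).

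An exact two-sided permutation test of the mean log2 CPM gave p = 0.0167 for each of the 6 separated targets, the smallest that 7 against 3 allows, so it adds nothing to the separation that chose them. All 9 tested skeletal muscle genes had a log2 fold change above 0 between constructs. Summed macrophage and microglia genes were 249 to 402 CPM with NLS-2SA-YAP1 and 347 to 1330 CPM with YAP1-MAML2-v2, with 2 of 7 tested markers above 0 in log2 fold change. Summed pericyte and smooth muscle genes were 504 to 1160 against 726 to 1940 CPM, with 2 of 7 above 0. Only ACTA2 of that list separated the constructs, and it went against the sum. It had 193 to 226 CPM with NLS-2SA-YAP1 and 40.1 to 93.9 CPM with YAP1-MAML2-v2. The part of the macrophages, pericytes and muscle cells was not tested. In the extra cranial tumors alone, 2 against 4, 14 of 35 targets (40%) did not overlap, against 22.2% of all genes. The 6 are among these 14 by construction, since the extra cranial tumors are a subset, and the others were TGM2, AXL, EMP2, TNS1, ASAP1, ARHGEF17, GADD45A and BICC1.

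**Figure D3:**
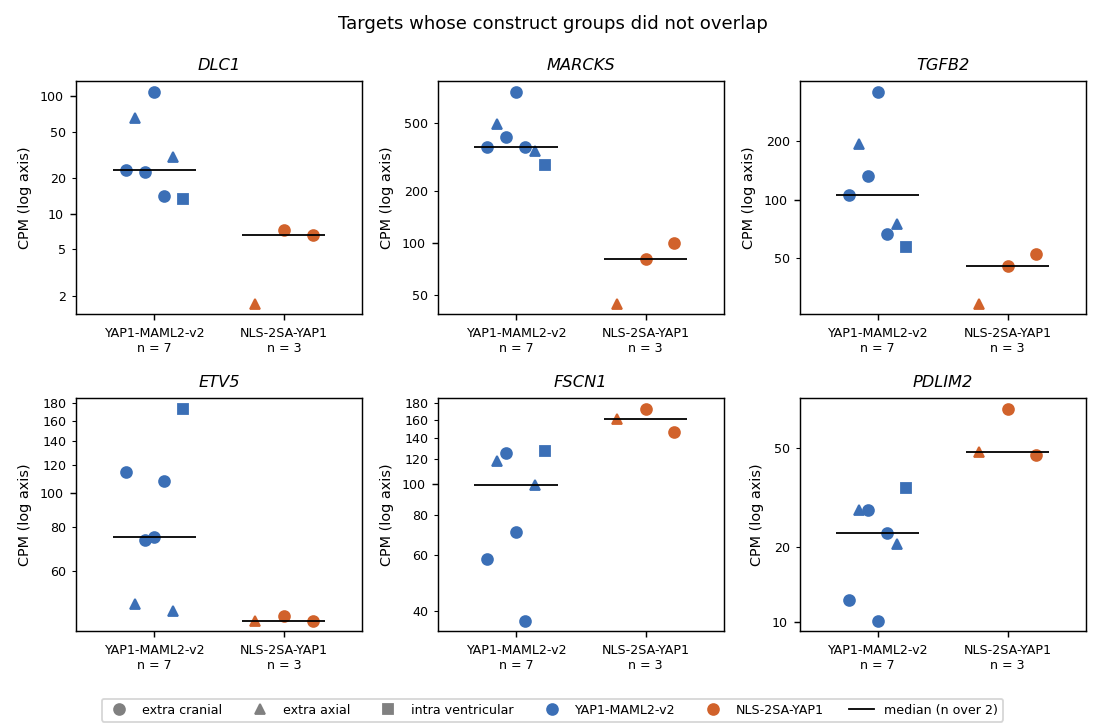
CPM (log axis) of the 6 targets whose construct groups did not overlap, with 1 point per tumor, color for the construct, marker shape for the region and a line at the group median. MARCKS shows the clearest gap, 44.4 to 100.2 CPM against 286 to 760.4 CPM, and ETV5 the narrowest.

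A further 3 targets had an unadjusted edgeR p under 0.05 with overlapping groups, each higher in NLS-2SA-YAP1 tumors. BICC1, the gene of an RNA-binding protein of the bicaudal C family, had 163, 393.5 and 503 CPM in NLS-2SA-YAP1 tumors and 15.7 CPM (lowest), 104 CPM (median) and 196 CPM (highest) in YAP1-MAML2-v2 tumors. Both extra cranial NLS-2SA-YAP1 tumors lay above every other tumor, while the extra axial one lay within the YAP1-MAML2-v2 range. The log2 difference of BICC1 was 1.52 (SE 0.43), and its adjusted p was 0.226 in edgeR and 0.0279 in DESeq2. ARHGEF17 had 151, 224 and 178 CPM against 58.8 to 95.8 CPM in YAP1-MAML2-v2 tumors other than replicate 2, which had 198 CPM (log2 fold change 1.12, SE 0.38, edgeR adjusted p = 0.283). GAS6, the ligand of AXL, had 495, 306 and 229.6 CPM against 59.7 to 312 CPM (log2 fold change 1.21, SE 0.51, edgeR adjusted p = 0.364). The ligand was highest and its receptor lowest in the same tumor, NLS-2SA-YAP1 replicate 1. The other NLS-2SA-YAP1 tumors, replicates 2 and 3, had the 2 highest AXL values (167 and 198.5 CPM) beside GAS6 at 306 and 229.6 CPM.

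By role, the 8 secreted and matrix-associated targets had a median log2 fold change of -0.68 between constructs, with 7 below 0 and GAS6 above 0. The others are SLIT2 (156 to 1846 CPM over all tumors), FSTL1 (148 to 2367 CPM), CCDC80, a matrix protein gene (139 to 1062 CPM), CRIM1 (123 to 1254 CPM) and TGM2, the tissue transglutaminase gene (10.8 to 805.6 CPM). FJX1 ran from 0.76 to 22.5 CPM. TGM2 had 77.8, 10.8 and 49 CPM in NLS-2SA-YAP1 tumors and 806, 27.7, 109, 244, 291, 133 and 55 CPM in YAP1-MAML2-v2 replicates 1 to 7, so the groups overlapped through replicates 2 and 7.

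The 7 receptors and surface proteins had a median log2 fold change of 0.19, with 4 above 0, and 0 had an unadjusted edgeR p under 0.05. Over all tumors F3 ran from 41.5 to 523 CPM, NT5E, the gene of the adenosine-producing enzyme CD73, from 25.9 to 398 CPM, and ITGB5 from 59.2 to 334 CPM. EMP2, an epithelial membrane protein gene, ran from 22 to 175 CPM and MYOF, the gene of the membrane repair protein myoferlin, from 28.3 to 436 CPM. Construct groups overlapped in all 7.

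The 10 regulators of the cytoskeleton, adhesion and small GTPases had a median of 0.32, with 7 above 0 and 5 at an unadjusted edgeR p under 0.05, in both directions, where 13.1% of all genes had such a p. The members not yet described overlapped between constructs. FLNA ran from 330.5 to 1277 CPM, TNS1, the gene of the focal adhesion protein tensin 1, from 114 to 472 CPM, and ASAP1, an Arf GTPase-activating protein gene, from 22.6 to 130.4 CPM. DOCK5, a Rac exchange factor gene, ran from 40.4 to 282 CPM, and DAB2, the gene of an endocytic adaptor, from 80.7 to 657 CPM. TNS1 in the NLS-2SA-YAP1 tumors (369, 427 and 472 CPM) exceeded every YAP1-MAML2-v2 tumor but replicate 5 (418 CPM).

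The 3 kinases and enzymes were all above 0 in log2 fold change without passing the test. The intra ventricular tumor, set apart by its own term in that fit, had the highest level of all 3. With it included, mean SGK1 was 166 CPM with NLS-2SA-YAP1 and 171 CPM with YAP1-MAML2-v2. In the same order the means were 9.96 and 6.08 CPM for NUAK2 and 96.4 and 67.1 CPM for DDAH1. SGK1 ran from 27.1 to 706 CPM, the stress-responsive AMPK-related kinase gene NUAK2 from 0.89 to 18 CPM, and DDAH1, whose enzyme breaks down an inhibitor of nitric oxide synthase, from 5.53 to 154 CPM. The 7 nuclear and RNA-binding targets had a median of 0.33, with 4 above 0. MDFIC, the gene of a MyoD family inhibitor domain protein, had 113, 133 and 116 CPM in NLS-2SA-YAP1 tumors, above every YAP1-MAML2-v2 tumor but replicate 5 (182 CPM). RBMS3, an RNA-binding protein gene, ran from 15.2 to 195 CPM, and GADD45A, a growth arrest and DNA damage gene, from 3.38 to 56 CPM.

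**Figure D4:**
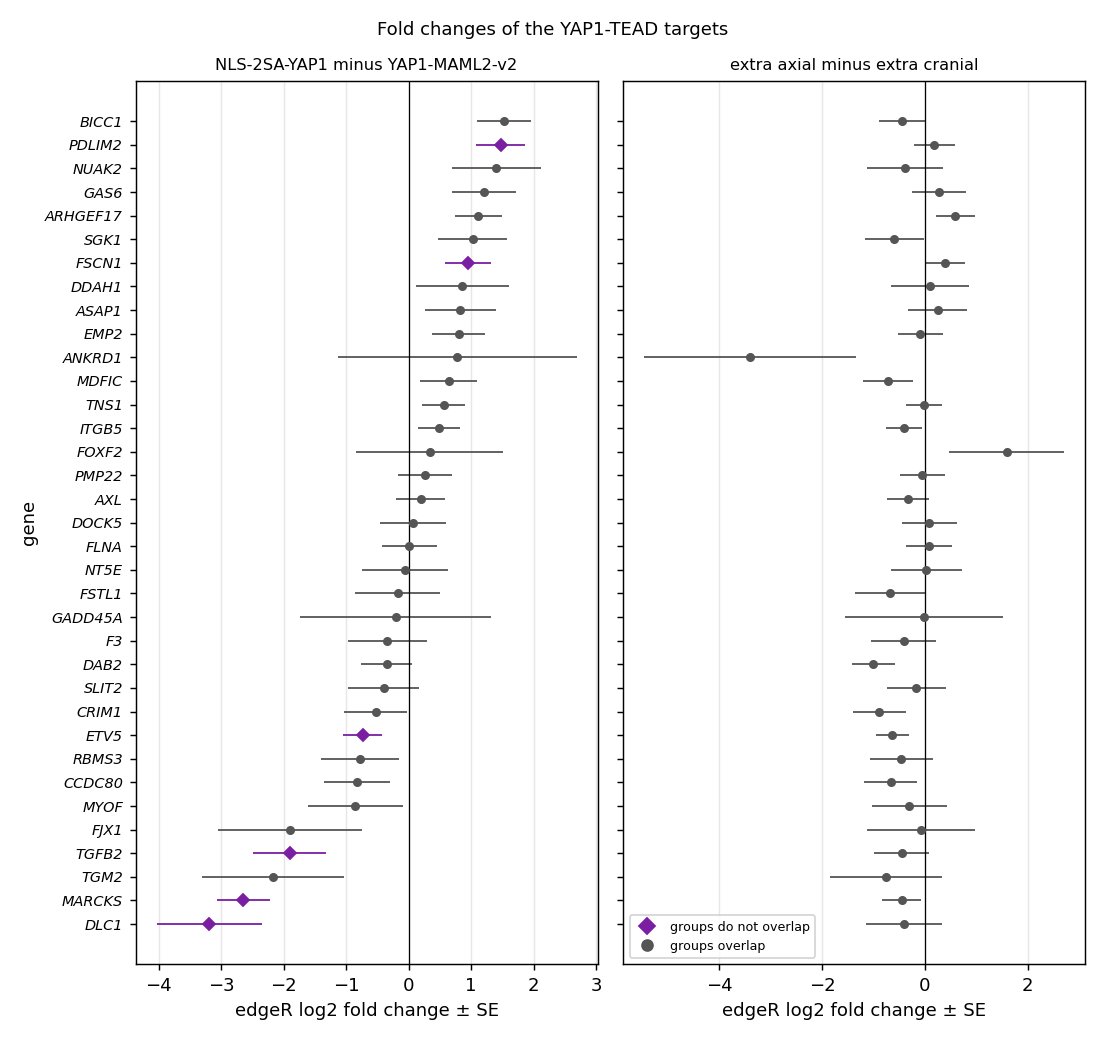
Log2 fold change from edgeR with its SE for each of the 35 targets between constructs (left) and between regions (right). Purple diamonds mark the 6 targets whose construct groups did not overlap, and no target has separate groups on the right.

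Other genes of the pathway, 28 regulators and targets from the CCN, angiomotin, Hippo kinase, YAP1 and TEAD families fixed as a list, had 12 above and 16 below 0 between constructs, with a median log2 fold change of -0.10. Of these, 0 passed edgeR's test over all genes and 10 of 28 had an unadjusted p under 0.05, against 13.1% of all genes. YAP1 itself, part of both constructs, is among them. In the extra axial against extra cranial comparison the same counts were 12 and 16, with 0 past edgeR's test and 1 at an unadjusted p under 0.05, against 3.01% of all genes.

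The second comparison set the 3 extra axial tumors against the 6 extra cranial ones. No target had groups that did not overlap, against 0.89% of all genes tested, and edgeR called 0 of 35 targets and 0.0% of all genes. At an unadjusted edgeR p under 0.05 there was 1 target (2.86%) against 3.01% of all genes. DESeq2 called 0 targets against 0.226% of all genes, and both limma fits called 0 of 35. Log2 fold changes, extra axial minus extra cranial, were below 0 in 25 of 35 targets and above 0 in 10 (28.6%), where 49.4% of all genes were above 0. Their median was -0.33, beside -0.01 over all genes. This lean rested largely on 2 tumors, since leaving out NLS-2SA-YAP1 replicate 1 gave a median of -0.10 and leaving out YAP1-MAML2-v2 replicate 4 gave -0.09. Summed muscle genes were 3.75 to 11.3 CPM in extra axial and 2.26 to 433 CPM in extra cranial tumors, with 9 of 9 tested markers below 0. Summed macrophage and microglia genes were 249 to 431 CPM in extra axial and 401 to 748 CPM in extra cranial tumors, with 6 of 7 tested markers below 0 and a median log2 fold change of -0.35. The part of either list in the lean was not tested.

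DAB2 was the target of smallest p by region. It had 338 and 204 CPM in the extra axial YAP1-MAML2-v2 tumors and 128 CPM in the extra axial NLS-2SA-YAP1 tumor. In the extra cranial tumors it ran from 241 to 657 CPM with a median of 425 CPM, so the groups overlapped only through YAP1-MAML2-v2 replicates 2 and 3. The log2 fold change of DAB2 was -0.999 (SE 0.42), and edgeR gave an unadjusted p of 0.039 and an adjusted p of 1. AXL had -0.33 (SE 0.40, edgeR adjusted p = 1), and its sign turned without NLS-2SA-YAP1 replicate 1 (0.19). ANKRD1 had a log2 fold change of -3.40 (SE 2.06, edgeR adjusted p = 1), with its highest levels in YAP1-MAML2-v2 replicates 3 and 4.

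Whether region acts alike under both constructs was tested as an interaction, with only 1 extra axial NLS-2SA-YAP1 tumor. By edgeR 0 of 35 targets passed, against 0.00741% of 13487 genes, and 3 had an unadjusted p under 0.05 (8.57% against 7.14%). DESeq2 called 1 target (2.86%) against 1.42%. That target was GADD45A. With YAP1-MAML2-v2 it stood at 3.38 and 8.82 CPM in extra axial and at 47.6, 19.9, 11.8 and 56 CPM in extra cranial tumors. In NLS-2SA-YAP1 tumors it stood at 52.9 CPM in the extra axial tumor and at 5.43 and 5.18 CPM in the extra cranial ones. The order of the regions was thus opposite under the 2 constructs, with an interaction of 5.80 on the log2 scale (SE 1.21) and an adjusted p of 0.609 in edgeR and 0.00127 in DESeq2. FLNA showed the reverse arrangement, with 1127 and 1152 CPM in extra axial and 540.3 to 969 CPM in extra cranial YAP1-MAML2-v2 tumors, but 462 CPM in extra axial and 887 and 1277 CPM in extra cranial NLS-2SA-YAP1 tumors (interaction -1.81, SE 0.77, edgeR adjusted p = 0.69). In 3 targets (8.57%), GADD45A, FLNA and ARHGEF17, the regions did not overlap within either construct and lay in opposite order, against 5.2% of all genes. AXL had an interaction of the same sign as FLNA, with a value of -1.94 (SE 0.57, edgeR adjusted p = 0.658).

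**Figure D5:**
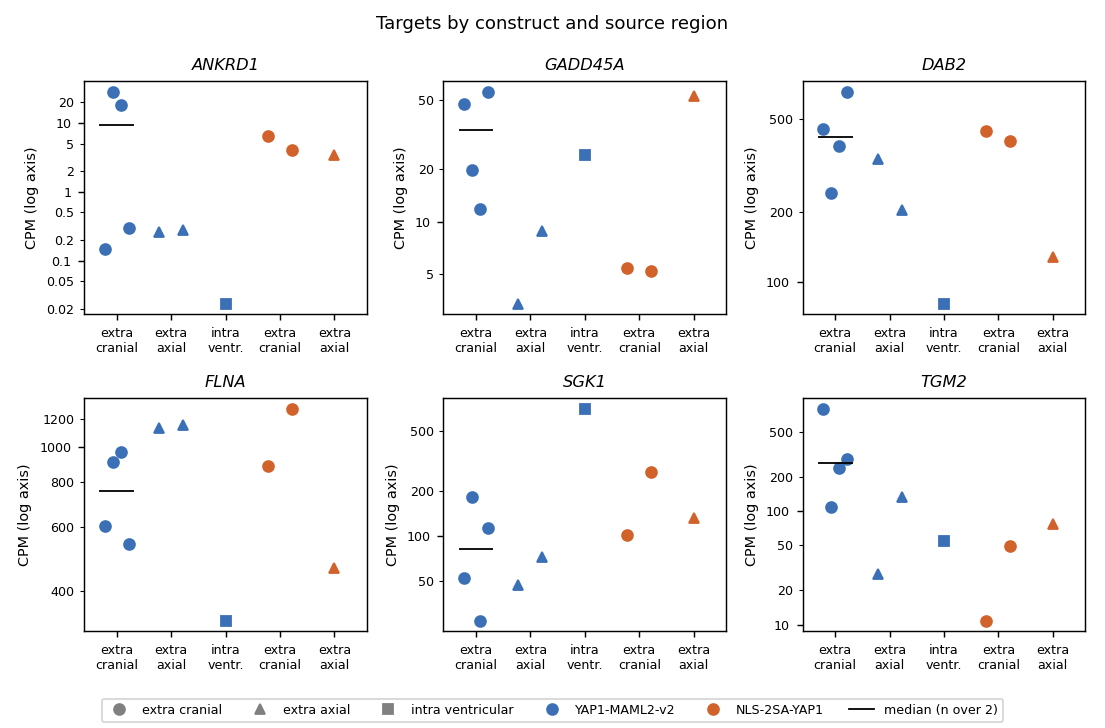
CPM (log axis) of 6 targets by construct (color) and source region, with 1 point per tumor and a line at the median of groups of more than 2 tumors. GADD45A and FLNA order the regions in opposite ways under the 2 constructs, and SGK1 is highest in the intra ventricular tumor.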

How the data were processed

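RNA-seq values of 10 tumors were used. Per the submitters' processing notes, the authors counted reads with HTSeq against mm10. For the aligner, annotation, strand setting and any later step, nothing is stated in these sources. Analysis took the authors' deposited values as estimated counts, because in each library 1 is 4.54 to 6.82 times as frequent as 2, a pattern that plain read counts would not give. They are whole already, so edgeR was run on them unrounded, where raw counts had been planned for. Only 1 value of the targets is 0 or 1. Symbols are in human form, and 15452 of 16895 (91.5%) matched a gene of GENCODE M21 (mm10), which gave coordinates and exon lengths.

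Genes were kept with filterByExpr by construct at a minimum count of 10 and scaled by TMM (edgeR 4.0.16, R 4.3.3). Genes were tested by edgeR's quasi-likelihood method with construct and region as terms. The only intra ventricular library takes a term to itself and so leaves no residual in that fit. Log2 CPM used a prior count of 2. Alternatives were DESeq2 1.42.0, limma 3.58.1 on log2 CPM and with voom and sample weights, other scaling, filters and terms, and leaving out each library. The interaction was fitted without the intra ventricular library. Simulated counts of 13707 genes were used to test the steps, 50 of them altered per fold size. They were drawn independently for each library from a count model. The deposited values are not plain counts and some tumors may share a mouse, so the shares found may not hold for them. Of the unaltered genes, edgeR called 4 in the construct comparison and 3 in the region comparison. The share of altered genes that edgeR called in the construct comparison was 0% at 2-fold, 18% at 4-fold, 52% at 8-fold and 72% at 16-fold, and in the region comparison 0%, 22%, 52% and 70%.

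Members and lists were chosen with earlier results of these data known. All 35 targets are named. Levels by library, or in larger groups the range and for most the median, are given for those whose groups do not overlap, those called by any tool, the 3 highest and lowest per length, the 3 of largest and smallest SD, and ANKRD1, AXL and TGFB2. Fold changes go to targets whose groups do not overlap or with an unadjusted p under 0.05, and to ANKRD1 and AXL. The names of the tables of YAP1-MAML2-v2 replicates 6 and 7 share a number that the labels do not explain, so these tumors may come from the same mouse. Genes of other tissues were summed as fixed lists.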

Additional observations from a re-analysis of the deposited data

Results flagged for a closer look

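Within the 7 YAP1-MAML2-v2 tumors, 2 of 35 targets had a tumor far from the others by Dixon's test on log2 CPM, where chance alone flags about 5% of groups. ARHGEF17 stood at 198 CPM in YAP1-MAML2-v2 replicate 2, against 58.8 to 95.8 CPM in the other 6. FOXF2 stood at 12.3 CPM in YAP1-MAML2-v2 replicate 7, the intra ventricular tumor, against at most 0.73 CPM in the other 6.

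In 3 targets (8.57%, against 5.2% of all genes tested) the extra axial and extra cranial tumors did not overlap within either construct and lay in opposite order. The interaction, on the log2 scale, was 5.8 for GADD45A, -1.81 for FLNA and -1.42 for ARHGEF17, with edgeR adjusted p-values of 0.609, 0.69 and 0.735. DESeq2 gave adjusted p-values of 0.00127, 0.245 and 0.556. Each rests on a single extra axial NLS-2SA-YAP1 tumor, and without 1 other library at a time the interaction ran from 5.35 to 6.69 for GADD45A, from -2.002 to -1.53 for FLNA and from -1.89 to -0.59 for ARHGEF17. The lowest size for ARHGEF17 was without YAP1-MAML2-v2 replicate 2.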

How the results depend on the processing

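The number of genes called between constructs, 2 in the main test, was 674 with DESeq2, 95 with limma-voom and sample quality weights and 4 each with limma on log2 CPM, without the filter on low values and in extra cranial libraries only. With the replicate block it was 24. The labels do not say that replicate numbers pair the tumors, and the values gave no uniform pairing (correlations of deviations 0.167, 0.337 and -0.0723 for numbers 1 to 3). NLS-2SA-YAP1 replicate 2 did correlate best with YAP1-MAML2-v2 replicate 2, while replicates 1 and 3 did not match their own number best. Without each library in turn the number of genes called between constructs was 0 to 2. Between regions, 0 genes became 31 with DESeq2, 8 with the replicate block and 0 to 1 without each library. For the interaction, 1 gene became 191 with DESeq2 and 0 to 3 without each library. Targets called between constructs, 0 in the main test, were 5 with DESeq2 and 1 with limma-voom and weights, and 0 without any 1 library. The block called no target.

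The median log2 fold change of the targets between constructs, 0.08, was 0.29 with limma-voom and weights, 0.30 in extra cranial libraries only, -0.05 without the region term, -0.08 with the replicate block and 0.0275 to 0.306 without each library. Between regions it was -0.522 to -0.0908 without each library. The count of 6 targets with separate construct groups was 14 in extra cranial libraries only and 6 to 10 without each library, settings chosen after seeing the data, and 10 without NLS-2SA-YAP1 replicate 1. Leaving out libraries cannot end a separation, so these counts can only stay or grow. The sign of ANKRD1 between constructs turned without the region term (-0.56), in extra cranial libraries only (-1.17) and without single libraries (-1.17 to 1.92). That of AXL turned without single libraries, between constructs (-0.0921 to 0.72) and between regions (-0.66 to 0.19). The cause was not tested. The fold changes between constructs of MARCKS, DLC1, TGFB2, ETV5, PDLIM2, FSCN1, BICC1, ARHGEF17 and GAS6, and those between regions of DAB2 and ANKRD1, kept their sign in the settings run. With the TEAD motif lengthened by a purine before and a pyrimidine after, 3 of 35 windows held it (8.57%), against 4.23% of all. These were windows of AXL, SGK1 and DAB2, and the ANKRD1 and FLNA windows no longer matched. The unknown depth limits what can be read from low values such as those of FOXF2.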
